A study of Homo sapiens with 12 samples.

Results

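HIST2H2AC, HIST1H2BH, HIST1H3B and HIST1H4B are replication-dependent histone genes, 1 for each of the core histones H2A, H2B, H3 and H4. They were described in Huh7 cells, a human hepatoma line, and were chosen by name from genes whose FPKM differed significantly, by the authors' mark, when the G398S form of A1CF was induced. They made up 4 of 24 rows with a symbol starting HIST among 1863 rows of that comparison. A1CF is an RNA-binding cofactor of the enzyme that edits apolipoprotein B mRNA. The G398S clone carried a doxycycline-inducible construct for the mutant protein, and the groups were this clone without and with doxycycline. A separate clone with an inducible wild-type (WT) construct was sampled in the same manner. Each construct was represented by 1 clone and there was no group given doxycycline in the absence of a construct. The labels list 3 libraries for each of the 4 groups, made from total RNA with depletion of ribosomal and globin RNA. The deposited tables hold 1 pooled FPKM value (fragments per kilobase of transcript, scaled to the mapped fragments) for a group, so values per library are not given and no SD can be formed.

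Core histones form the protein spool around which DNA is wound. Their replication-dependent genes lie in clusters of many copies and are transcribed mainly in S phase, when new DNA must be packaged. Their mRNAs are unusual in lacking introns and, in the main form, a poly(A) tail. They end instead in a short stem-loop that is bound by the stem-loop binding protein and that governs processing, translation and rapid decay when replication stops. Libraries made from total RNA, as here, capture such transcripts without selection for a tail.

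The promoters of the 4 genes are shown because the genes moved in the same direction. Each window runs from 250 bases before to 50 bases after the annotated start in the RefSeq table (GRCh38.p14), 5′ to 3′ on the strand of the gene. These coordinates are on another build than those of the expression rows below, which are on hg19. RefSeq now names the genes H2AC20, H2BC9, H3C2 and H4C2. The windows are chr1:149886668-149886967 (plus strand) for HIST2H2AC, chr6:26251364-26251663 (plus strand) for HIST1H2BH, chr6:26032050-26032349 (minus strand) for HIST1H3B and chr6:26027234-26027533 (minus strand) for HIST1H4B. Capitals mark matches, on either strand, to 4 motifs known from histone promoters or from general promoters. These were the TATA box (TATAAA), the CCAAT box (CCAAT), the octamer (ATTTGCAT) bound by POU factors and the cyclic AMP response element (TGACGTCA).
HIST2H2AC: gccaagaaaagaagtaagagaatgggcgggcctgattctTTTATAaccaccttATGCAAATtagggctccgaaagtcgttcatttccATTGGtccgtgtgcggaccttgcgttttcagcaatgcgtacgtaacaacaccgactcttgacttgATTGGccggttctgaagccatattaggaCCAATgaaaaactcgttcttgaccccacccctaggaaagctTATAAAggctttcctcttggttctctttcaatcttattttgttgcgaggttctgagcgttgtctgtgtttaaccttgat
HIST1H2BH: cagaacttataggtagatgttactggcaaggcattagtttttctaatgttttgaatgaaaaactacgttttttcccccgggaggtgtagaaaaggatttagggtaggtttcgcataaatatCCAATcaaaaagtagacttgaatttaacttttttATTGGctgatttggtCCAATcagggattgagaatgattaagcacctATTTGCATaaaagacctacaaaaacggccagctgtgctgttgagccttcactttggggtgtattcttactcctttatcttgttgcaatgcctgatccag
HIST1H3B: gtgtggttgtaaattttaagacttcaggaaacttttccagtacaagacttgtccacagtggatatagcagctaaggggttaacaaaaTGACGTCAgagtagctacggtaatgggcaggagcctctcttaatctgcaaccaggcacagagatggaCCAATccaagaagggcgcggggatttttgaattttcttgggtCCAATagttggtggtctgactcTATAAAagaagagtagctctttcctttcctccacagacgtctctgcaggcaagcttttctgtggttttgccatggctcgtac
HIST1H4B: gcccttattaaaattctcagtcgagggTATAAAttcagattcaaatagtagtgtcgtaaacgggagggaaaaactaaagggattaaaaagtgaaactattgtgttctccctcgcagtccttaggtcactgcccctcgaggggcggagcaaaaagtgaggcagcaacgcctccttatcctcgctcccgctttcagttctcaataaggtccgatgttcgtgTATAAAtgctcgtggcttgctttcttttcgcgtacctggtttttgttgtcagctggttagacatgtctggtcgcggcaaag

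The 4 promoters differed in motif content. HIST2H2AC held 2 TATA matches, 3 CCAAT matches and 1 octamer. On the strand of the gene were 1 TATA match (first base at -29 from the start) and 1 CCAAT match (-70). The octamer (-197) lay on the opposite strand, at the site of the HIST2H2BE octamer (-46), since the windows of these genes overlap. The opposite-strand TATA match (-211) is likewise the one at -30 of HIST2H2BE. HIST1H2BH held 3 CCAAT matches and 1 octamer 49 bases before the start, and TATAAA was not among the letters of its window. HIST1H3B held 1 TATA match 32 bases before the start, 2 CCAAT matches and the 1 response element among the 4 genes. HIST1H4B held 2 TATA matches and no CCAAT match. Promoter windows were found for 22 gene symbols of the 24 HIST rows. Of these, 17 held TATAAA (77.3%), against 11.5% of all 35116 windows in the table. A CCAAT box was present in 19 (86.4%), against 34.6% of all windows. For the octamer the counts were 9 (40.9%) against 1.77%, and for the response element 2 (9.09%) against 1.85%. The octamer was found in 4 of 6 H2A and 5 of 7 H2B windows, in 0 of 5 H3 windows and in 0 of 4 H4 windows. These are counts of windows and not of separate sites, since windows of H2A and H2B neighbours on opposite strands can overlap. The octamer site of HIST2H2AC is also that of HIST2H2BE, and the site of HIST1H2AE is also that of HIST1H2BG. The shares of the other motifs have the same limit. TATA matches were counted wherever they lay in a window. The only TATA match of HIST1H2AE was at -206 on the opposite strand, and that of HIST4H4 was at -250. Windows of HIST genes outside these rows were not counted, so the shares are not shown to be particular to rows that fell. A match is a description of the letters and does not show that a factor binds there.

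**Figure D1:**
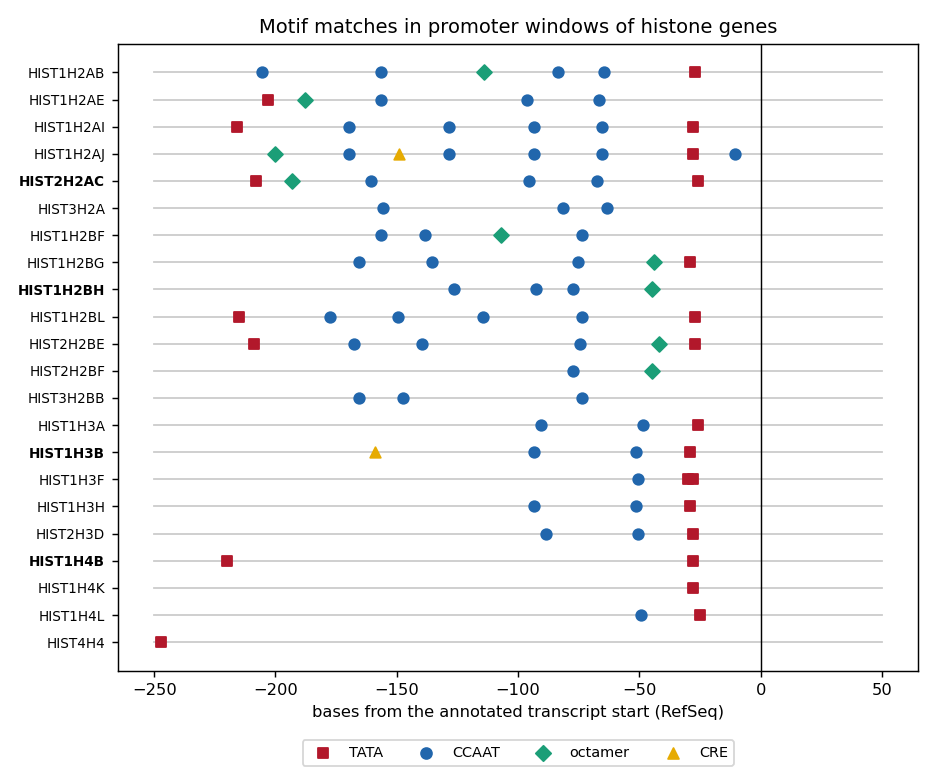
Motif matches in 22 promoter windows of histone genes, 1 line for each gene with the 4 described genes in bold, against distance in bases from the annotated start (0). Squares mark TATA, circles CCAAT, diamonds the octamer and triangles the response element (CRE), on either strand, at the centre of the match. Octamers lie in H2A and H2B windows alone, 9 of 22 in all, and overlapping windows can show the same site on more than 1 line.

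The 3′ stem-loop, the binding site of the stem-loop binding protein, is shown for the 2 described genes whose annotated transcript reaches it. It was searched in the protein-coding transcripts of GENCODE release 29 as 16 bases with 2 complementary arms of 6, the left arm starting GG, and a loop of 4 starting TT. Capitals mark the stem-loop, with 5 flanking bases on each side.
HIST1H2BH: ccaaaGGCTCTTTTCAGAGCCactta
HIST1H4B: ccaatGGCCCTTTTCAGGGCCgccca
In HIST1H2BH it lies at bases 405 to 420 of a 2060-base transcript whose coding sequence ends at base 381, so the annotated transcript runs far beyond it. In HIST1H4B it lies at bases 337 to 352 of 438, after a coding sequence that ends at base 312. The annotated transcripts of HIST2H2AC and HIST1H3B, 390 and 411 bases long, end with the coding sequence, so the bases that would follow it were not searched. Among the HIST rows 14 of 26 protein-coding genes had a match in the annotated transcript, in 3 versions. The form of HIST1H2BH was shared by 10 genes, and that of HIST1H4B by 2, the other being HIST4H4. Such a match was found in 30 of all 71 protein-coding genes named HIST (42.3%) and in 0.454% of protein-coding genes not named HIST.

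All 4 histone genes were among the more abundant rows of the G398S table, and all 4 fell, by 24.9% to 29.6%, with doxycycline. In the whole comparison the authors called 12.4% of 17072 genes tested at a q of 0.05, in both directions, and 53.7% of the rows analysed here were lower with doxycycline. In bulk RNA, fewer cells in S phase and less histone mRNA in each cell cannot be told apart. HIST1H3B, which encodes histone H3.1, had 2940.5 FPKM without and 2197 FPKM with doxycycline in the authors' pooled values, the second highest uninduced level among the 1863 rows. HIST1H4B, an H4 gene, had 2645 FPKM without and 1985 FPKM with doxycycline, rank 4 by uninduced level. HIST2H2AC, an H2A gene of the chromosome 1 cluster, stood at 1071 FPKM and then at 754 FPKM. HIST1H2BH, an H2B gene, stood at 704 FPKM and then at 515 FPKM. On this per-length scale the order of the 4 genes was the same in both groups, and the highest exceeded the lowest 4.17-fold without and 4.27-fold with doxycycline. Which neighbours in that order differ beyond the spread of libraries cannot be given from pooled values.

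As a share of the uninduced level, HIST2H2AC was lower by 29.6%, HIST1H2BH by 26.9%, HIST1H3B by 25.3% and HIST1H4B by 24.9%. On the log2 scale the authors' deposited table gave -0.51 for HIST2H2AC (q = 0.00104). HIST1H2BH followed at -0.45 (q = 0.00349, the authors' deposited table). For HIST1H3B and HIST1H4B the authors' deposited table gave -0.42 (q = 0.0101) and -0.41 (q = 0.00608). These values chose the genes and are given as a description. The log2 fold change divided by the deposited test statistic implies a standard error, which was 0.19 for HIST2H2AC and up to 0.21 for HIST1H3B. The deposited p-values do not follow from that statistic alone. HIST1H3B had a statistic of -1.980 with a Cuffdiff p of 0.00075, and HIST1H4B had -1.976 with a Cuffdiff p of 0.0004. Implied standard errors are therefore a rough scale here and not the spread behind the q-values. The 4 log2 fold changes differed by at most 0.09, less than the smallest of their implied standard errors.

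**Figure D2:**
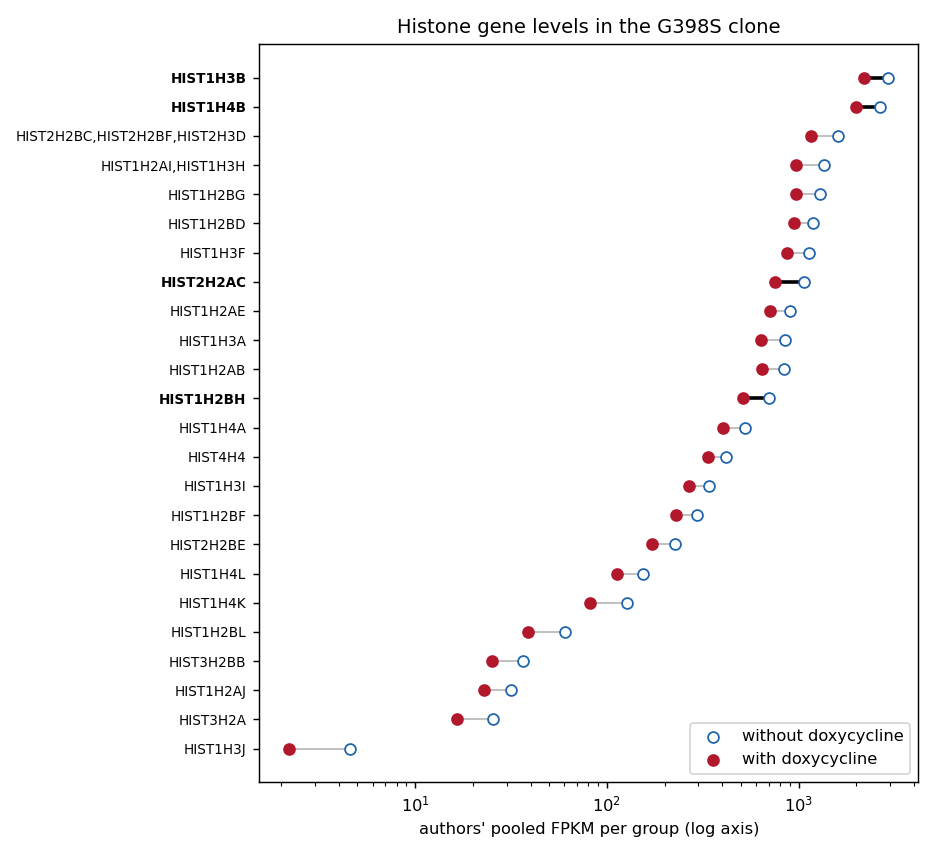
Authors' pooled FPKM (log axis) of the 24 HIST rows in the G398S clone, open circles without and filled circles with doxycycline, with the 4 described genes in bold. Every filled circle lies left of its open circle, from HIST1H3B at 2940.5 and 2197 FPKM down to HIST1H3J at 4.57 and 2.198 FPKM; after subtraction of the median log2 fold change of all rows, 23 of 24 were below 0.

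The fall extended to every HIST row of the table, 24 of 24 against 53.7% of all rows, and to 23 of 24 once the median of all rows (-0.32 on the log2 scale) was subtracted, HIST4H4 being then at 0.01. That median is taken over significant rows alone, of which most were lower, so it is no estimate of a scaling error. The 24 HIST rows name 26 of the 71 protein-coding genes named HIST. The other genes named HIST were not analysed here, so the fall describes rows marked as significant and not the whole histone family. The median log2 fold change of the HIST rows was -0.43, and that of the 20 rows other than the described genes -0.42. Their log2 fold changes ran from -1.05 to -0.32 in the authors' deposited table, with 1 row at an absolute value of 1 or more. That row, HIST1H3J, was also the lowest in level, at 4.57 FPKM without and 2.198 FPKM with doxycycline, and its implied standard error was 0.52. On log2(FPKM + 1) its change was -0.80. Summed over the 24 rows, FPKM went from 18749 to 14057, that is to 75.0% of the uninduced sum. The other rows of the table together stood at 99.1%. Without 4 globin rows that were higher with doxycycline, a choice made after seeing the data, they stood at 92.5%. Those other rows mix 863 higher and 976 lower, which offset each other in a sum, so the sums are not a like comparison. The 4 described genes alone summed to 7361 FPKM without and 5450.4 FPKM with doxycycline. HIST rows below 100 FPKM without doxycycline, 5 in all, had a median log2 fold change of -0.62, and the 19 at or above that level had -0.40. Their implied standard errors were 0.22 to 0.52 below 100 FPKM and 0.19 to 0.22 at or above it. Since only significant rows are listed, a row with a larger standard error needs a larger change to appear. These medians are therefore not a like comparison of levels.

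All core histone classes took part. In the authors' deposited table the median log2 fold change was -0.47 over 5 H2A rows, -0.40 over 7 H2B rows, -0.42 over 5 H3 rows and -0.41 over 5 H4 rows. HIST2H2AC had the second largest fall of the H2A rows, after HIST3H2A at -0.62 in the authors' deposited table, a gene with 25.4 FPKM without and 16.5 FPKM with doxycycline. Among H2B rows HIST1H2BL and HIST3H2BB lay further below 0 than HIST1H2BH, at -0.65 and -0.53 in the authors' deposited table. HIST1H3B and HIST1H4B were each the median row of their class. Rows of more than 1 symbol, 2 in all, mix classes and were at -0.48 and -0.46 in the authors' deposited table. No row of the linker histone H1 with a HIST symbol was among those analysed here.

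**Figure D3:**
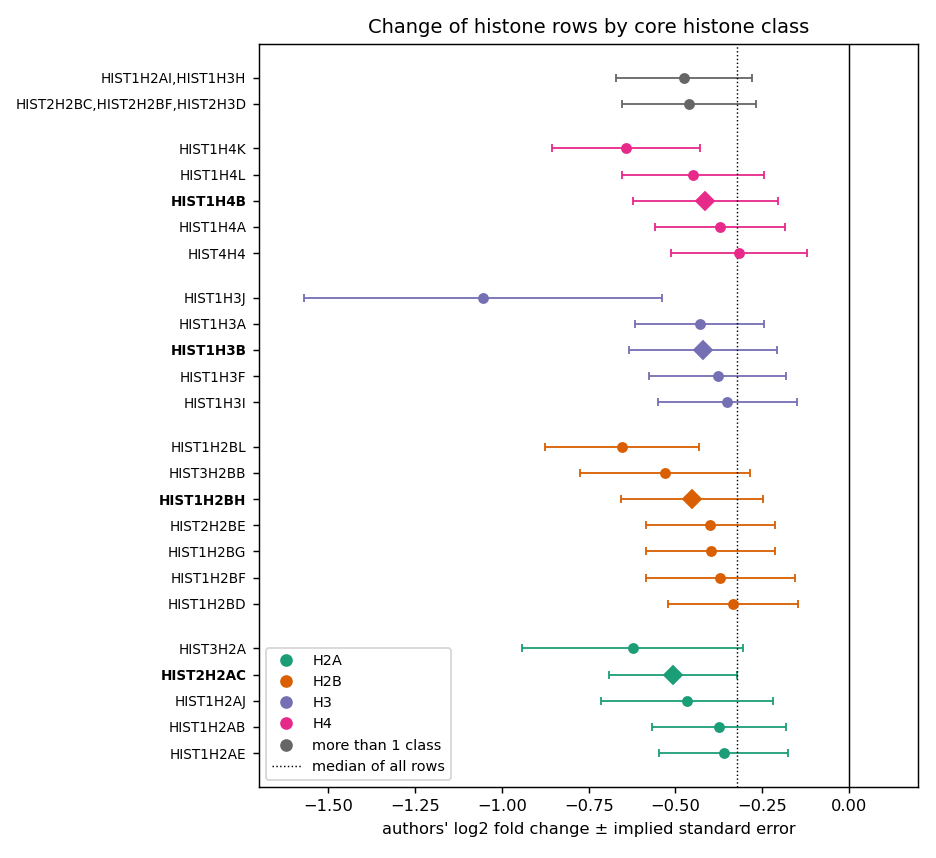
Authors' log2 fold change (with against without doxycycline) of the 24 HIST rows by core histone class, with bars of 1 implied standard error, diamonds and bold names for the 4 described genes, a solid line at 0 and a dotted line at the median of all rows (-0.32). The 4 described genes lie between -0.51 and -0.41, inside the range of the other rows, and HIST4H4 alone lies right of the dotted line.

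The rows lay in all 4 numbered histone gene groups. Positions from here on are on hg19. HIST1H4B (chromosome 6, 26025500 to 26027547) and HIST1H3B (chromosome 6, 26030205 to 26032461) are neighbours, with 2657 bases between the rows. HIST1H2AB, 191 bases beyond HIST1H3B, went from 835 to 644 FPKM, -0.37 as a log2 fold change (the authors' deposited table). HIST1H2BH (chromosome 6, 26251603 to 26261906) lies 484 bases from HIST1H3F, which went from 1127 to 867 FPKM (log2 fold change -0.38, the authors' deposited table). HIST2H2AC (chromosome 1, 149858525 to 149858961) lies 232 bases from HIST2H2BE on the opposite strand, a divergent pair in which their promoter windows overlap. HIST2H2BE went from 225 to 171 FPKM, and the authors' deposited table gave -0.40 on the log2 scale, against -0.51 for HIST2H2AC. Another close H2A and H2B pair, HIST3H2A and HIST3H2BB, 169 bases apart, had -0.62 and -0.53 in the authors' deposited table. Neighbours within these pairs differed by less than the smallest implied standard error of a described gene, 0.19. The 18 rows of chromosome 6 had a median log2 fold change of -0.42, the 3 rows of the HIST2 group -0.46, the 2 HIST3 rows -0.58, and HIST4H4 on chromosome 12 was at -0.32.

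What a row measured differs between the 4 genes. The HIST2H2AC row spans 437 bases, close to the 494 bases of the RefSeq gene. The rows of HIST1H2BH, HIST1H3B and HIST1H4B span 10304, 2257 and 2048 bases, against 462, 511 and 388 bases for the RefSeq genes, so their FPKM may include longer transcripts from the same place. Close copies add a second limit, since reads may be split among them. HIST1H4B shares its encoded protein with 13 of 13 other H4 genes compared, at 80.4% to 84.9% identity of the coding bases. HIST1H3B encodes the same protein as 9 of 14 other H3 genes, with up to 87.3% identity of the coding bases (HIST1H3D). The closest copy of HIST1H2BH, HIST1H2BE, is 94.0% identical. HIST2H2AC is 94.1% identical to HIST2H2AA3, with an unbroken run of 149 shared bases. The sources used here do not give how reads that fit several copies were assigned.

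The fall of the histone genes was set against rows of similar abundance. At 100 FPKM or more without doxycycline, 84 of 111 rows other than HIST were lower (75.7%), with a median log2 fold change of -0.34. At or above the lowest described gene in both groups there were 13 other rows, of which 12 were lower, with the same median of -0.34. Among the 11 of these with 1 symbol, those nearest to the median of the 4 genes (-0.44) by distance in log2 fold change included RPS29, RPS12, RPS18 and AMBP. This likeness rests on 2 groups of 1 clone. RPS29 went from 1141 to 830.2 FPKM and RPS12 from 3939 to 2996 FPKM. For RPS18 and AMBP the authors' deposited table gave log2 fold changes of -0.38 and -0.37. RPS29, RPS12 and RPS18 encode proteins of the small ribosomal subunit, and AMBP encodes a plasma protein precursor made by hepatocytes. The smallest absolute log2 fold change of any row at 100 FPKM or more was 0.29, so the described genes lie not far above the smallest change marked as significant. The other rows with a span under 1000 bases numbered 4, 2 higher and 2 lower, too few to stand as a background for short genes. Whether abundance or transcript length bears on the histone values was not tested.

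**Figure D4:**
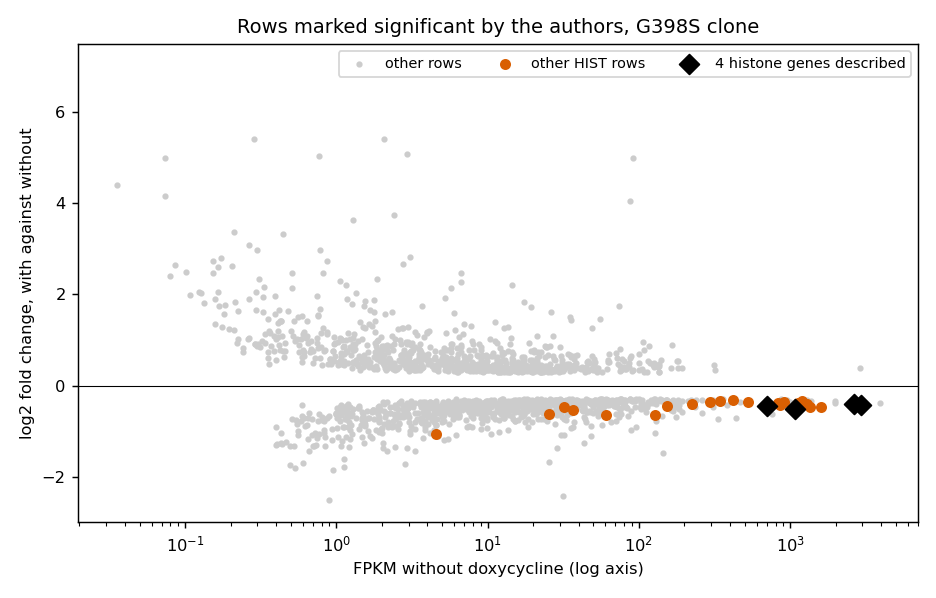
Authors' log2 fold change against FPKM without doxycycline (log axis) for the 1863 rows of the G398S table, grey for other rows, orange for HIST rows and black diamonds for the 4 described genes. The diamonds sit at the abundant end between -0.51 and -0.41, and rows nearer to 0 than 0.29 are missing because the table holds significant rows alone.

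Genes that act on histone mRNA were in the table at a share near that of all genes tested, 12.4% of which were called. The 12.4% counts 2114 genes called, of which 1863 rows were analysed here, while the lists were counted over those rows alone. List totals also keep genes that may not have been tested, so the shares are not strictly alike. Of 27 genes for transcription and 3′ end processing of histone mRNA, 1 fell and 1 rose (7.41% of the list). CCNE1, the cyclin that with CDK2 switches on histone transcription at the start of S phase, went from 17.5 to 13.2 FPKM (log2 fold change -0.40, q = 0.00544, the authors' deposited table). LSM11, a subunit of the U7 particle that cuts histone pre-mRNA, went from 0.923 to 1.29 FPKM, a low level (log2 fold change 0.48, q = 0.0125, the authors' deposited table). On log2(FPKM + 1) this change was 0.25. Of 20 decay genes 2 fell and 0 rose (10% of the list), though ERI1 lay above the median of all rows. ERI1, the exonuclease that trims the stem-loop, went from 22.5 to 18.4 FPKM and LSM7, of the ring that binds uridylated histone mRNA, from 113 to 81.9 FPKM. On the log2 scale the authors' deposited table gave -0.29 for ERI1 and -0.47 for LSM7. The stem-loop binding protein gene SLBP was not analysed here.

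Of 26 histone chaperone genes, 2 fell and 1 rose, 11.5% of the list against 12.4% of all genes tested. The limit given above on setting list shares against the 12.4% holds for each list here. SUPT16H, a subunit of the FACT complex that moves nucleosomes aside for polymerases, went from 88.7 to 44.8 FPKM (log2 fold change -0.98, q = 0.00104, the authors' deposited table). The log2 fold change was -0.36 for IPO4, which imports histones into the nucleus, and 0.36 for SPTY2D1, an H3 and H4 chaperone (the authors' deposited table). Replication-independent variants gave 2 of 15 genes (13.3%), both lower. H2AFY, which encodes macroH2A1, went from 119 to 90.5 FPKM and the linker histone gene H1FX from 9.74 to 7.47 FPKM. Their log2 changes were -0.39 and -0.38 (the authors' deposited table). DNA replication genes gave 16 of 61, 0 higher and 16 lower (all but RPA1 also below the median of all rows), with a median log2 fold change of -0.41. This is 26.2% of that list, against 12.4% of all genes tested, and 53.7% of all rows were lower with a median of -0.32. POLA2, a subunit of the polymerase that lays primers, led them at -0.56 in the authors' deposited table, and PCNA, the sliding clamp, went from 413 to 326 FPKM. RPA1, a subunit of the single-strand binding complex, was at -0.31 in the authors' deposited table.

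Other RNAs that carry no poly(A) tail gave 3 rows, all lower, against 53.7% of all rows. Of the 3, SCARNA2 lay above the median of all rows. TERC was 1 of 10 genes listed by name, and SCARNA2 and SNORD7 were taken by the start of their symbols, so no share of a list can be given. TERC, the telomerase RNA, went from 211 to 166 FPKM, SCARNA2 from 949 to 761 FPKM and SNORD7 from 28.6 to 11.0 FPKM. In that order the authors' deposited table gave log2 fold changes of -0.35, -0.32 and -1.38. Whether the share of tailless RNA differed between the library groups was not tested.

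**Figure D5:**
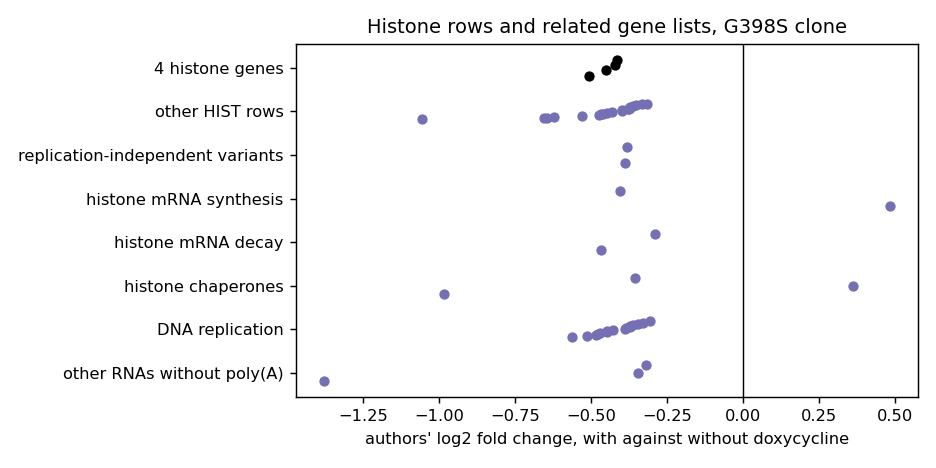
Authors' log2 fold change (with against without doxycycline) in the G398S clone for the 4 described genes (black), the other 20 HIST rows and genes of 6 related lists that are in the table, 1 point for each row, spread vertically for legibility. The 4 genes lie between -0.51 and -0.41, all 16 DNA replication genes lie below 0 (all but RPA1 also below the median of all rows), and LSM11 (0.48) and SPTY2D1 (0.36) lie above it; 0 is not the median of the table, which is -0.32.

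In the WT clone, 0 of 142 rows analysed had a symbol starting HIST, and none was one of the 4 described genes. The authors called 1.14% of 15109 genes tested in that comparison. The level and change of the 4 genes in the WT clone were therefore not analysed here, and no difference between the clones was tested. The DNA replication, chaperone, decay, processing and variant lists also had 0 rows there. Tailless RNAs other than histones gave 3 rows in the WT clone, all lower. Of the 142 WT rows 86 were lower, with a median log2 fold change of -0.66. RNU11, a spliceosomal RNA, was at 452 FPKM without and 122 FPKM with doxycycline. RNVU1-19 was at 65.8 and 12.9 FPKM (q = 0.0483, implied standard error 0.87, the authors' deposited table). SNORD7, the 1 row of these in both clones, was at 35.1 and 13.6 FPKM.

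Checks of the series as a whole bear on these values. A1CF went from 26.3 to 80.9 FPKM with doxycycline for G398S and from 19.5 to 33.2 FPKM for WT, as the labels imply. For G398S, 12.4% of all genes tested were called, and 53.7% of the rows analysed were lower, with a median log2 fold change of -0.32. The limit given above on list shares holds for markers too. Of 15 hepatocyte markers 3 were in the G398S table (20%), APOA2, APOA1 and TF, all lower, from 853 to 578 FPKM in sum. TF, at -0.35 in the authors' deposited table, lay near the median of all rows. Of 9 erythroid markers 4 were in the G398S table (44.4%), all higher, from 183 to 4535 FPKM in sum. All 4 are globin genes (HBB, HBA2, HBG1 and HBG2), and the libraries were made with depletion of globin RNA. Whether that depletion differed between the library groups was not tested. For WT, 3 of the 9 erythroid markers were present (33.3%), against 1.14% of all genes tested. HBG1 and HBG2 were lower, and HBA2 was higher at a low level (1.15 to 9.67 FPKM, implied standard error 2.15). The sum of the 3 went the opposite way to that for G398S, from 37206 to 337 FPKM. Cholangiocyte markers gave 3 of 6 (50%) for G398S, lower, from 199 to 133 FPKM in sum. KRT19 supplied most of that sum, at 193 and 130 FPKM. SPP1 (4.70 to 2.17 FPKM) and SOX9 (1.24 to 0.782 FPKM) were at low levels. Immune, fibroblast and endothelial markers gave 1 row each. Their summed levels without and with doxycycline were 7.29 and 3.87 FPKM for immune, 0.447 and 0.755 FPKM for fibroblast and 1.48 and 0.674 FPKM for endothelial markers. Markers outside the table were not analysed here, and the part of these shifts in the histone values was not tested.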

How the data were processed

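Per the submitters' processing notes, bcl2fastq 2.9.1, STAR 2.5.0b, Cufflinks 2.2.1, Cuffdiff and hg19 were used for the 12 libraries. Settings, strand use and handling of reads with several matches are not stated in the sources used here. The authors deposited, for each clone, rows they marked as significant. Per the file headers each row gives 1 FPKM for each group, a log2 fold change (of the FPKM ratio, no pseudocount), a test statistic (a score), and p-values and q-values. Tables were normalised separately. The WT table's group names carry no clone, which was read from the deposited table's name. Depth is unknown, and the labels do not say whether libraries were separate cultures, so p-values may reflect technical spread.

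No test was run here. Rows were matched by exact symbol. Starts count from 0 and were raised by 1 (57 spans then equal a RefSeq gene length, against 19). The number tested was recovered from the ranks implied by deposited p-values and q-values, checked on simulated data. By those ranks 2114 genes passed for G398S and 172 for WT, of which 1863 and 142 rows were analysed. Promoters came from RefSeq and transcripts from GENCODE release 29, joined by Entrez identifier; coding sequences of unequal length were globally aligned. Python 3.11.15 and pandas 2.3.3 were used. The members and lists were chosen with earlier results of these data known. Named genes were the members, HIST rows, up to 6 of each list by absolute log2 fold change, A1CF and the 5 nearest rows, of which 1 is not reported here; RPA1 and PCNA were named after their values were seen. Alternatives were a pseudocount, centring, a stricter q, a minimum FPKM and other sets of histone rows.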

Additional observations from a re-analysis of the deposited data

How the results depend on the processing

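Of the alternatives tried, adding 1 FPKM to both groups left the median log2 fold change of the 4 histone genes at -0.44 and that of the 24 HIST rows at -0.43. Subtracting the median of all rows moved the median of the 4 genes from -0.44 to -0.11, by more than their implied standard errors, with each of the 4 still below 0 (-0.18 to -0.09). A q of 0.01 or less kept 14 HIST rows, all lower, in place of 24, and HIST1H3B (q = 0.0101) was not among them; fewer rows are admitted by construction. The count was 24 with a minimum of 1 FPKM in either group, 22 for rows of 1 symbol, 22 for the list of replication-dependent symbols and 23 after subtraction of the median. That list asked for letters after the class in a symbol, so it left out HIST3H2A and HIST4H4 by the form of their names alone. It kept a row of several symbols that include HIST2H2BC, annotated as a pseudogene. Without the 4 genes the HIST median was -0.42. Against the 4 other rows with a short span the HIST median does not change, and that background is too small to read. No paired analysis was possible because the deposited values are pooled for each group. For the same reason no library could be left out, and depth, which would limit the lowest row, HIST1H3J, is unknown.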
